A study of Mus musculus with 77 samples.

Results

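The comparison described here set chronic high-dose levodopa against chronic saline in indirect pathway spiny projection neurons (iSPN) of mice whose dopamine input had been destroyed. Its members were chosen by the source labels: 8 arrays of lesioned, high-dose mice and 7 arrays of lesioned, saline mice, 15 of the 77 arrays of the series. Every mouse was a male of 9 to 14 weeks on the C57BL/6J background and hemizygous for Drd2::EGFP-L10a (line CP101), a bacterial artificial chromosome transgene in which the Drd2 gene drives a green-fluorescent ribosomal protein. RNA on tagged ribosomes was pulled down from the dorsal striatum of a single mouse (translating ribosome affinity purification, TRAP) and read on an Affymetrix mouse expression array, so each array is a separate animal. All 15 mice had received 6-hydroxydopamine (6-OHDA, 3.2 µg/µl) in the right medial forebrain bundle, and only animals that passed behavioural tests for a successful lesion were used. The high regimen began with 3 mg/kg levodopa a day from day 1 to day 3 and went to 6 mg/kg from day 4 to day 9, given with 12 mg/kg benserazide, which keeps levodopa from being converted outside the brain. The saline group was handled alike and injected with saline. Groups used beside these were lesioned iSPN mice on a low regimen (8 arrays, 1 mg/kg and then 2 mg/kg). Mock-lesioned iSPN mice on saline (10 arrays) were used too, and the labels give ascorbate for their mock lesion. The others were lesioned mice of the Drd1::EGFP-L10a line (CP73), whose tag sits in direct pathway neurons (dSPN). They were on saline (11 arrays) or the high regimen (11 arrays).

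Spiny projection neurons are the output cells of the striatum. Those of the indirect pathway carry the D2 dopamine receptor, which couples to inhibitory G proteins, so that dopamine lowers cyclic AMP and excitability in them, whereas the D1 receptor of the direct pathway raises cyclic AMP. Loss of dopamine is known to make indirect pathway neurons more active, and levodopa, the precursor of dopamine, restores the transmitter and with repeated dosing brings on involuntary movements (dyskinesia). The high regimen was chosen by the submitters as one that should cause severe dyskinesia.

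The purified RNA fitted the label of the line. Over 11 tested iSPN marker genes the mean log2 level was 9.62 (9.46 to 9.73 over arrays) at the high dose and 9.56 (9.37 to 9.78) with saline, against 5.89 and 6.55 in the dSPN groups. Over 15 dSPN markers it was 7.24 (7.03 to 7.53) and 7.25 (6.90 to 7.48), against 9.41 and 9.33 in dSPN. Markers of other cells were measurable. Oligodendrocyte markers (14 tested) had a mean level of 7.06 (6.57 to 7.30) at the high dose and 7.50 (7.13 to 8.47) with saline, astrocyte markers (15 tested) 6.95 (6.62 to 7.14) and 7.12 (6.71 to 7.81), and microglia markers (10 tested) 4.85 (4.54 to 5.12) and 5.05 (4.59 to 5.51). The highest oligodendrocyte and astrocyte means with saline were those of saline replicate 4. None of the genes on the oligodendrocyte, astrocyte, microglia, endothelial and mural, cholinergic, GABA interneuron or cortical pyramidal lists passed the test below. Yet all 14 oligodendrocyte markers were lower at the high dose, with a median log2 difference of -0.41. Without saline replicate 4 that median was -0.24. Within purified RNA of this kind, fewer cells of a type and less RNA per cell cannot be told apart.

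By the numbering of their titles the arrays form 7 blocks, called runs here, whose meaning the labels leave unstated. All 8 high-dose arrays lie in run 6. Of the saline arrays, replicates 2 and 3 share that run, replicate 5 lies in run 5 and replicates 1, 4, 6 and 7 in run 7.

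The high dose changed the ribosome-bound RNA of 1309 of 13271 genes tested (9.86%), of which 832 rose (6.27%) and 477 fell (3.59%), at a Benjamini-Hochberg adjusted p under 0.05 in limma. In what follows, a gene is said to rise or fall only if it passed this test, and changes are differences of log2 means (high dose minus saline) each with its model standard error (SE). Of the 1309 genes, 203 changed by more than 2-fold, and the median change over all genes tested was 0.0124. The count depended on how the run was treated: with run as a fixed block 249 genes passed (151 up, 98 down), 217 of them among the 1309, and within run 6 alone (8 against 2 arrays) 61 passed. Of the 1309 genes, 1305 kept their sign with the block and 1304 within run 6. The median ratio to the reported change was 0.88 and 0.923. Both fits reuse arrays in which these genes were chosen, so this agreement was in part set in advance. It cannot tell the drug from the run. Fitted on the iSPN arrays alone, 577 genes passed, and on the 15 arrays alone 600.

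The gene that rose most was Rnd1, a regulator of the actin cytoskeleton. It lay between 4.15 and 6.49 (median 4.49) on the 7 saline arrays and between 7.04 and 9.38 (median 8.35) on the 8 high-dose arrays. The groups did not overlap, and the change was 3.46 (SE 0.40, adjusted p = 1.69e-09 in limma), or 11-fold. Wfdc18, a secreted protein with a whey acidic protein domain, rose nearly as much. Its saline arrays spanned 3.98 to 6.95 (median 5.62) and its high-dose arrays 7.58 to 9.94 (median 9.42). The change was 3.42 (SE 0.37, adjusted p = 2.12e-10), again with no overlap.

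Nr4a2, which encodes the orphan nuclear receptor Nurr1, was the third in size. It ran from 4.55 to 6.39 (median 5.13) with saline and from 6.58 to 8.74 (median 7.70) at the high dose, a change of 2.52 (SE 0.32, adjusted p = 2.39e-08). All high-dose arrays were above all saline arrays, although saline replicate 7 stood apart from the other saline arrays at 6.39. The gene has 6 probe sets on the array, and they did not respond alike: 4 rose by 1.24 to 3.4, while the remaining pair changed by -0.08 and -0.02.

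Growth arrest genes were among the leaders. Gadd45g, a stress-sensor and demethylation-linked gene, had the smallest p-value of the named genes: 6.61 to 7.78 (median 7.15) with saline, 8.37 to 9.66 (median 9.44) at the high dose, a change of 2.14 (SE 0.19, adjusted p = 3.52e-14). Cdkn1a, the cyclin-dependent kinase inhibitor p21, ran from 7.37 to 8.88 (median 8.46) with saline and from 9.20 to 11.38 (median 10.68) at the high dose, a change of 2.21 (SE 0.28, adjusted p = 1.92e-08). In each case the groups did not overlap.

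Rgs16, a protein that shortens signalling by inhibitory and Gq-type G proteins, ran from 6.03 to 7.32 (median 6.74) with saline and from 7.66 to 9.87 (median 8.77) at the high dose, a change of 2.13 (SE 0.30, adjusted p = 2.35e-07). These groups were separate as well. Fblim1, a filamin-binding protein of the actin cytoskeleton, ran from 3.25 to 5.58 (median 3.96) and from 4.68 to 6.98 (median 6.16), a change of 2.16 (SE 0.33, adjusted p = 2.58e-06). Here 7 of the 8 high-dose arrays were above every saline array.

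The other genes among the 12 largest rises were Pnmt (2.41, SE 0.39), the enzyme that makes adrenaline from noradrenaline, Mapkapk3 (2.39, SE 0.53), a kinase switched on by p38 MAP kinase, Hic1 (2.34, SE 0.49), a transcriptional repressor, Pdyn (2.09, SE 0.27), the precursor of the dynorphin opioid peptides, and Baz1a (2.07, SE 0.37), a subunit of a chromatin remodelling complex. Pnmt varied widely with saline, from 4.20 to 7.86, and so did Baz1a, from 4.51 to 7.66. Of the 12 genes, 7 had every high-dose array above every saline array, and 11 kept their call with run as a fixed block. The genes named here and below were mostly chosen by their change in these same arrays. Separation of the groups is therefore in part set by that choice, and its share over all genes was not counted. Hic1 did not keep its call (adjusted p = 0.13 in limma).

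**Figure D1:**
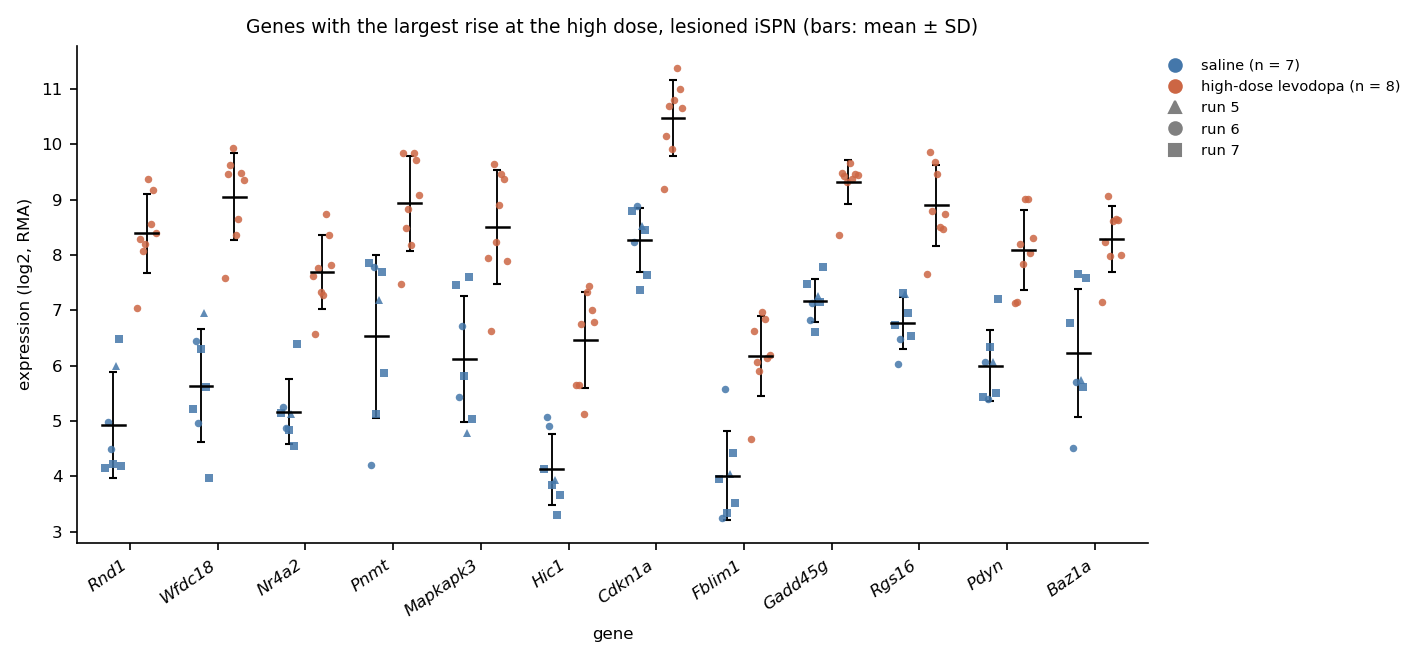
Log2 expression (vertical axis) of the 12 genes with the largest rise in lesioned iSPN, with a point per array, blue for saline (n = 7) and orange for the high dose (n = 8), marker shape for the run, and bars for the mean ± SD. For Rnd1 the saline arrays end at 6.49 and the high-dose arrays begin at 7.04, while for Fblim1, Pnmt, Mapkapk3, Pdyn and Baz1a the groups overlap in part.

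The largest fall was that of the unnamed transcript C030013G03Rik. It ran from 6.13 to 8.50 (median 8.15) with saline and from 4.66 to 6.99 (median 5.58) at the high dose, a change of -2.30 (SE 0.42, adjusted p = 6.9e-05 in limma). Of the high-dose arrays, 6 were below every saline array, of which saline replicate 4 at 6.13 was the lowest by far. Cers4, a ceramide synthase, ran from 6.92 to 8.41 (median 7.85) with saline and from 4.12 to 6.91 (median 6.25) at the high dose. It fell by 1.80 (SE 0.35, adjusted p = 0.000154), and it was the only gene of the 12 largest falls whose groups did not overlap.

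Gask1b, a Golgi-associated kinase homologue, was the fall with the smallest p-value of these 12. It ran from 6.04 to 8.03 (median 7.45) with saline and within the narrow span of 5.31 to 6.11 (median 5.69) at the high dose, a change of -1.64 (SE 0.23, adjusted p = 4.54e-07). The other falls included Fadd (-1.78), an adaptor of death receptors, Ntng1 (-1.65), a membrane-anchored netrin, Trmt9b (-1.55), a transfer RNA methyltransferase homologue, Slc27a1 (-1.47), a fatty acid transporter, and Marveld1 (-1.45), a membrane protein. A dimmer probe set of Fadd changed by 0.02. The transcripts 9330179D12Rik (-1.69), AI504432 (-1.46) and Gm31024 (-1.43) have no named product.

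Nr4a1, which encodes the orphan nuclear receptor Nur77 and is a textbook activity-induced gene, was also among these 12. It ran from 9.37 to 10.71 (median 10.07) with saline and from 8.07 to 9.49 (median 8.59) at the high dose, a change of -1.44 (SE 0.30, adjusted p = 0.000635). All but 1 of the high-dose arrays were below every saline array. Its relative Nr4a2 thus moved the other way in the same animals. With run as a fixed block 5 of the 12 falls kept their call, namely C030013G03Rik, 9330179D12Rik, Gask1b, Trmt9b and Gm31024. Nr4a1 then changed by -1.21 (adjusted p = 0.15). Gm31024 lost its call on the iSPN arrays alone (adjusted p = 0.0881).

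**Figure D2:**
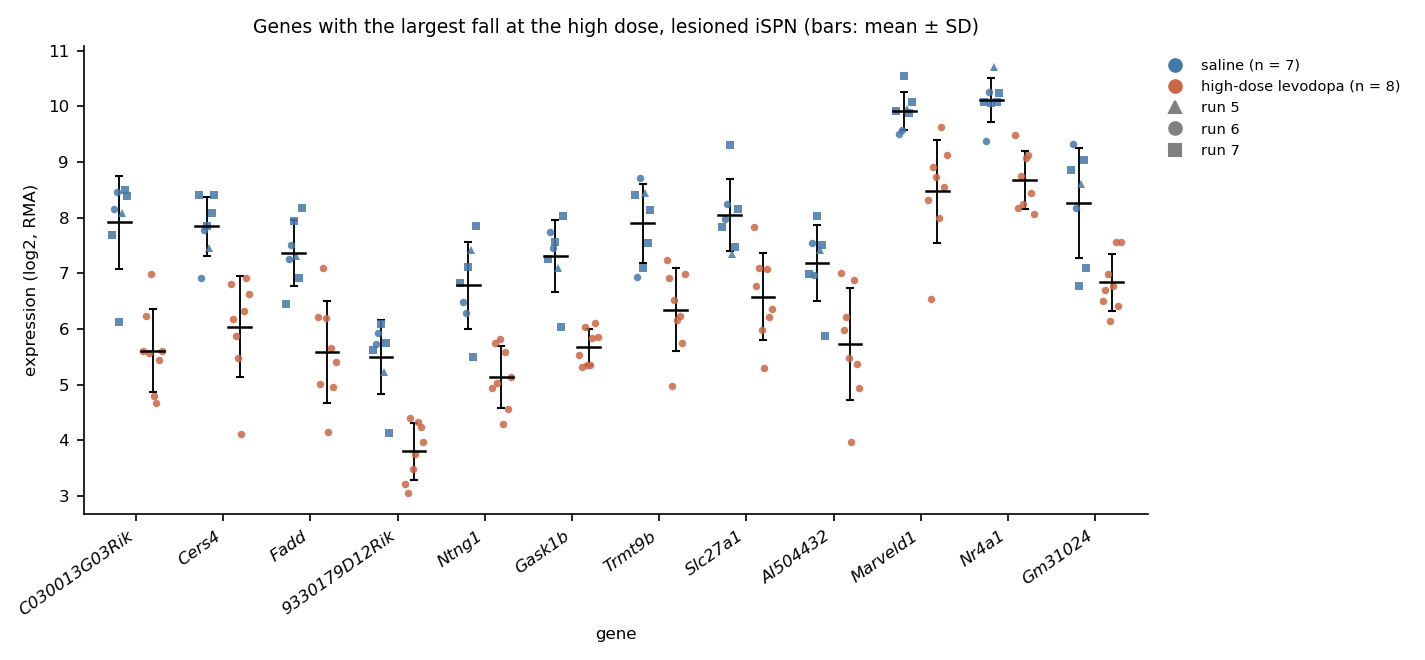
Log2 expression (vertical axis) of the 12 genes with the largest fall in lesioned iSPN, with a point per array, blue for saline (n = 7) and orange for the high dose (n = 8), marker shape for the run, and bars for the mean ± SD. Cers4 is the gene without overlap, and Nr4a1 lies at 9.37 to 10.71 with saline against 8.07 to 9.49 at the high dose.

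Promoters were searched for the elements through which activity-regulated transcription factors are known to act. The promoter table from RefSeq (build GRCm38.p6) gives 250 bases before to 50 bases after a gene's start, and 19 of the 24 genes above have an entry. The letters searched on both strands were TGACGTCA for the cyclic AMP response element (CRE), TGANTCA for AP-1, the site of Fos and Jun dimers, GCGNGGGCG for Egr factors, AAAGGTCA for the NBRE of Nr4a receptors, and the serum response element (SRE). No pattern contains another. Hic1 and Fblim1 each have 2 listed promoters, of which the one with a match is shown. The 4 most changed genes with a match were Nr4a2 and Hic1, each with an Egr pattern, and C030013G03Rik and Fblim1, each with an AP-1 pattern. Their promoters are shown because these genes lead the changes described here, with the matched letters in capitals.
Nr4a2, chr2:57123954-57124253, minus strand: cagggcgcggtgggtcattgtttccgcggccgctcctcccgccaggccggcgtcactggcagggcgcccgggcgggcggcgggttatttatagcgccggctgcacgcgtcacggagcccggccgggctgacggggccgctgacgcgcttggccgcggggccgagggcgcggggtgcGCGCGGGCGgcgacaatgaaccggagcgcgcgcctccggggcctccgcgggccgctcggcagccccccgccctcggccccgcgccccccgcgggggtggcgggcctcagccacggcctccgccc
Hic1, chr11:75170206-75170505, minus strand: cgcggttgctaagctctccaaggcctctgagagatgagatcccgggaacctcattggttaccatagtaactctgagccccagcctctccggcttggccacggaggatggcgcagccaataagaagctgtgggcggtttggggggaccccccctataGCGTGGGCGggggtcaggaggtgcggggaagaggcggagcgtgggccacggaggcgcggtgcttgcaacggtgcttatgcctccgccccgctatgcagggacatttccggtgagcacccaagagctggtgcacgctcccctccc
C030013G03Rik, chr17:12466594-12466893, plus strand: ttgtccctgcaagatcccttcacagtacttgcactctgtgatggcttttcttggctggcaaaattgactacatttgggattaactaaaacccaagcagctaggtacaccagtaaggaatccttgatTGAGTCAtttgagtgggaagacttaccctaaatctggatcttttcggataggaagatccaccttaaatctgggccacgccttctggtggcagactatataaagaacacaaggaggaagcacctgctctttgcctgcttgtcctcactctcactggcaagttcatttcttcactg
Fblim1, chr4:141606003-141606302, minus strand: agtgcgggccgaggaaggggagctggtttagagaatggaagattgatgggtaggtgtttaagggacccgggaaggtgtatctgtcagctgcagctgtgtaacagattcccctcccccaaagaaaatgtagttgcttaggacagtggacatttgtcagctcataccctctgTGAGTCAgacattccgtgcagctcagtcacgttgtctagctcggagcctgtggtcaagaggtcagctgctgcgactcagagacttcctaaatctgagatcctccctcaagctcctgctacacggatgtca

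The Egr pattern lies 74 to 66 bases before the start in Nr4a2 and 94 to 86 bases before it in Hic1. The AP-1 pattern lies 124 to 118 bases before the start in C030013G03Rik and 80 to 74 bases before it in Fblim1. Such matches are common: of 32851 promoters in the table, 5.55% held the Egr pattern, 7.81% the AP-1 pattern, 1.79% the CRE, 1.51% the NBRE and 1.63% the SRE. Among genes tested with a promoter, the Egr pattern stood in 15.1% of 680 genes that rose, 13% of 370 that fell and 12.4% of all 10672. The AP-1 pattern stood in 5.88%, 7.03% and 6.09%, and the CRE in 3.53%, 4.05% and 3.48%. For the NBRE these shares were 0.735%, 1.89% and 1.14%, and for the SRE 2.35%, 0.541% and 1.63%. The shares are descriptions of these letters and were not tested.

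Immediate early transcription factors, which neurons switch on within minutes of activity, did not move as a group. Of 32 tested, 8 rose (25%, against 6.27% of all genes) and 4 fell (12.5%, against 3.59%), and their median change was 0.13. This and the other lists were chosen with earlier results of these data known. Beside Nr4a2, the members that rose included Fosb, an AP-1 subunit tied to dyskinesia in earlier work, and Maff, a small leucine zipper factor. Fosb ran from 7.41 to 8.25 (median 7.97) with saline and from 8.83 to 9.60 (median 9.17) at the high dose. It rose by 1.2 (SE 0.25, adjusted p = 0.000582 in limma) with no overlap between the groups. Maff rose by 1.23 (SE 0.40, adjusted p = 0.0327), also without overlap, but lost its call under the run block (adjusted p = 0.355). This gene is dim in iSPN, with a saline mean of 3.07, below the 3.55 that genes had to exceed to be tested. Maff passed that filter on its mean over all arrays, 3.86, to which high-dose dSPN contributed a mean of 5.54. Its iSPN saline arrays (2.88 to 3.32) all lay below the cut, so the lack of overlap adds little.

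Nr4a1 and, by a smaller amount, Egr1 (-0.33, SE 0.10, adjusted p = 0.0226) were among those that fell. The rest of the panel of activity genes did not pass. Fos ran from 5.72 to 7.94 (median 7.59) with saline and from 5.72 to 8.07 (median 6.72) at the high dose, a change of -0.43 (SE 0.47, adjusted p = 0.647) that was 0.016 within run 6 alone. Junb changed by -0.05 (adjusted p = 0.859). Arc, a postsynaptic plasticity gene, had every high-dose array (8.70 to 9.19) above every saline array (8.14 to 8.60), yet with the spread pooled over all groups its change of 0.57 (SE 0.22) missed the threshold (adjusted p = 0.0889). Fitted on the 15 arrays alone, Arc passed (adjusted p = 0.00809). That fit kept only 559 of the 1309 calls, and Egr1 did not pass in it (adjusted p = 0.0776). With run as a block 3 members of this list rose and 0 fell, Fosb among those that rose (1.40, adjusted p = 0.0206). Over all 13271 genes that blocked fit called 151 up and 98 down, the background for the blocked counts of this and later lists. Without saline replicate 4 the counts were 4 up and 4 down.

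Activity-induced plasticity genes, a wider set of synaptic, secreted and signalling genes, held more rises. Here 12 of 29 rose (41.4%, against 6.27% of all genes) and 4 fell (13.8%, against 3.59%), with a median change of 0.31. The rises were led by Cdkn1a, Gadd45g, Baz1a and Ptgs2. Ptgs2, the inducible cyclooxygenase, ran from 2.41 to 4.3 (median 2.80) with saline and from 3.57 to 5.91 (median 4.68) at the high dose, a change of 1.76 (SE 0.27, adjusted p = 1.79e-06 in limma), with 6 of 8 arrays above all saline arrays. It is dim in iSPN, with a saline mean of 2.98, below the 3.55 that genes had to exceed to be tested. It passed that filter on its mean over all arrays, 4.44, to which high-dose dSPN contributed a mean of 8.39. Inhba, the activin subunit, ran from 9.26 to 10.78 (median 10.48) and from 11.01 to 12.29 (median 11.75), a change of 1.35 (SE 0.28, adjusted p = 0.000606) without overlap. The falls included Rgs2, Vgf and Scg2. With run as a block 8 of the 29 rose and 2 fell, against 151 and 98 of all 13271 genes.

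Among genes that hold MAP kinase signalling in check falls outnumbered rises. Of 22 tested, 8 fell (36.4%, against 3.59% of all genes), 1 rose (4.55%, against 6.27%) and 13 were not called, with a median change of -0.26. Dusp6, the phosphatase that inactivates ERK, ran from 7.05 to 8.50 (median 7.99) with saline and from 5.47 to 8.44 (median 6.61) at the high dose. It fell by 1.22 (SE 0.25, adjusted p = 0.000471), and 6 of 8 high-dose arrays were below every saline array. Spry2 (-0.81, SE 0.13) and Spred2 (-0.77, SE 0.14), inhibitors of Ras to ERK signalling, and Dusp1 (-0.72, SE 0.16), another MAP kinase phosphatase, fell too. All 8 high-dose arrays of Spred2 (9.36 to 10.17) were below its saline arrays (10.32 to 10.69). In the blocked fit 3 members fell, namely Dusp6, Spry2 and Spred2, and 0 rose.

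**Figure D3:**
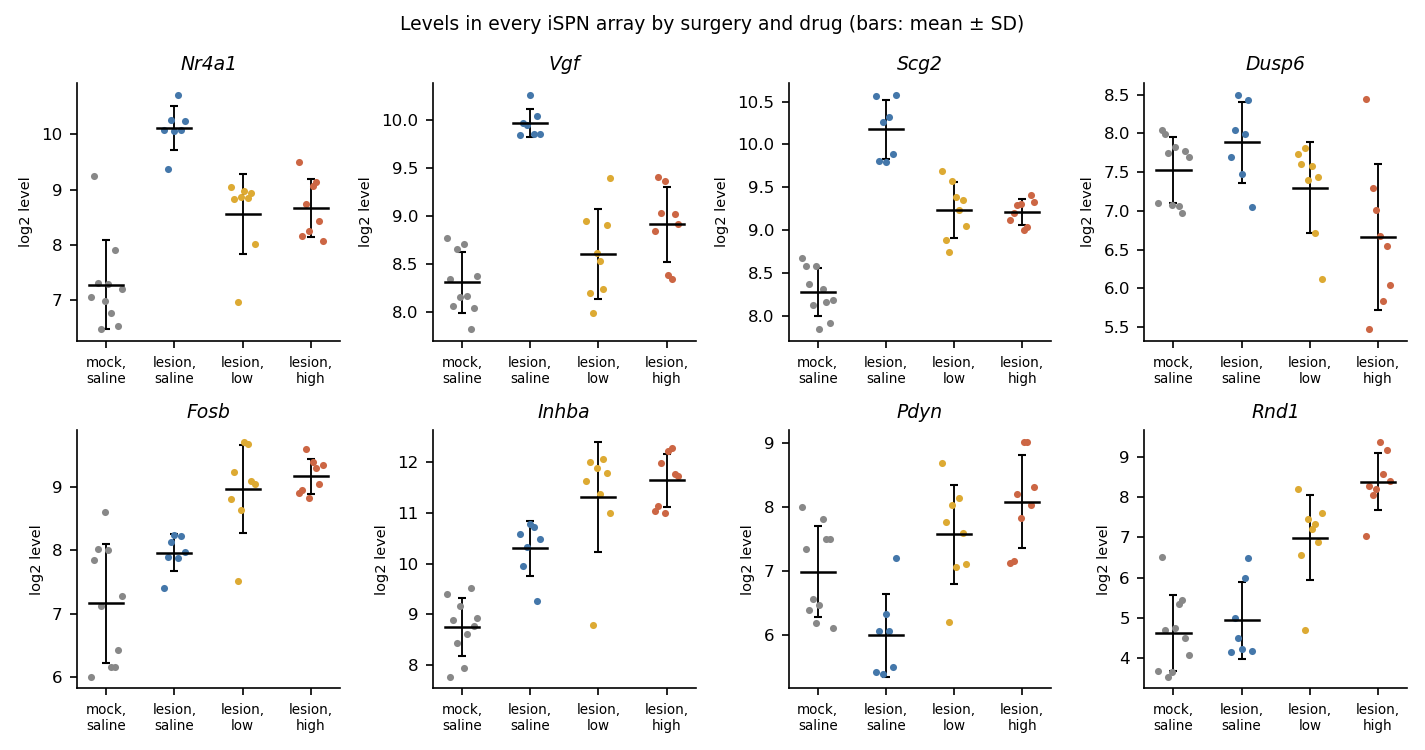
Log2 level (vertical axis) of 8 genes in every iSPN array of mock-lesioned saline mice (n = 10) and of lesioned mice on saline (n = 7), low-dose (n = 8) or high-dose levodopa (n = 8), with bars for the mean ± SD. Nr4a1, Vgf and Scg2 are highest in the lesioned saline group and Rnd1 in the high-dose group, where it averages 8.39.

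The neuropeptide and granin list split: 2 of 22 rose, 2 fell, and the median change was 0.01. Each share was 9.09%, against 6.27% up and 3.59% down over all genes. The granin-like secreted proteins Vgf and Scg2, both stored in dense-core vesicles, were those that fell. Vgf lay between 9.84 and 10.26 (median 9.95) on every saline array and between 8.34 and 9.40 (median 8.97) at the high dose. It fell by 1.05 (SE 0.21, adjusted p = 0.000214 in limma), and the groups did not overlap. Scg2 ran from 9.80 to 10.58 (median 10.26) and from 9.00 to 9.41 (median 9.25), a change of -0.96 (SE 0.15, adjusted p = 2.88e-06), again with every high-dose array lower. After blocking on run, Vgf changed by -0.99 and missed the threshold (adjusted p = 0.0557).

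The peptides that rose, Pdyn and Tac1, are those known for direct pathway neurons. Pdyn ran from 5.39 to 7.2 (median 6.06) with saline and from 7.13 to 9.02 (median 8.12) at the high dose, where dSPN averaged 11.26. Its change was 2.09 (SE 0.27, adjusted p = 2.97e-08), and 6 of 8 high-dose arrays were above all saline arrays. Tac1, the substance P precursor, ran from 8.44 to 9.67 (median 9.42) and from 9.82 to 10.31 (median 10.13), a change of 0.76 (SE 0.11, adjusted p = 1.5e-06) without overlap. Under the run block Tac1 changed by 0.50 (adjusted p = 0.0796).

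Of 15 tested dSPN markers 3 rose, namely Pdyn, Tac1 and Stmn2 (0.58), and 5 fell, with a median change of -0.16. These shares were 20% and 33.3%, against 6.27% and 3.59% of all genes. Eya1 fell by 1.38 (SE 0.26, adjusted p = 0.000127) and Slc35d3, a vesicular transporter, by 1.04 (SE 0.27, adjusted p = 0.00591). Under the run block 1 marker rose and 0 fell (Eya1 adjusted p = 0.0784, Slc35d3 adjusted p = 0.124). Drd1 itself ran from 9.07 to 10.17 (median 9.47) with saline and from 8.68 to 9.98 (median 9.19) at the high dose, a change of -0.33 (SE 0.15, adjusted p = 0.171). How far RNA carried over from dSPN entered the changes of Pdyn and Tac1 was not tested. Nor was it tested for genes that rose in both lines and more in dSPN, among them Nr4a2, Mapkapk3, Baz1a, Ptgs2, Inhba and Fosb.

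Of 11 tested genes that mark iSPN 2 rose (18.2%, against 6.27% of all genes), 0 fell and 9 were not called (median 0.02). Those that rose were Nt5e (1.05, SE 0.36, adjusted p = 0.0491), the enzyme that makes adenosine outside cells, and Gucy1a1 (0.35, SE 0.11, adjusted p = 0.0223), a subunit of the nitric oxide receptor. In the blocked fit neither passed. Drd2 ran from 12.12 to 12.54 (median 12.20) with saline and from 12.00 to 12.63 (median 12.34) at the high dose. Its change of 0.02 (SE 0.20, adjusted p = 0.98) was negative under 3 of the alternative settings. Penk, the enkephalin precursor of iSPN, changed by -0.05 (SE 0.07, adjusted p = 0.744), from 13.02 to 13.21 with saline to 12.89 to 13.19. Of 19 shared spiny neuron markers 2 rose (10.5%), Dach1 (0.40) and Rasd2 (0.28), and Ptpn5, a tyrosine phosphatase, fell by 0.28 (5.26%). Under the run block none of these 3 passed. Their other probe sets changed less and were not called: Dach1 by 0.07 and 0.05, Rasd2 by 0.16, and Ptpn5 by -0.07 and 0.05.

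On the list of receptor and cyclic AMP signalling genes no receptor was called in either direction, and 52.3% of the changes were positive. Of 44 genes for dopamine, adenosine and muscarinic receptors and cyclic AMP signalling, 1 rose (2.27%, against 6.27% of all genes) and 5 fell (11.4%, against 3.59%), with a median of 0.01. The falls of largest size were those of the phosphodiesterase Pde4d (-0.73, SE 0.16), the inhibitory G protein subunits Gnai2 (-0.54, SE 0.16) and Gnai1 (-0.39, SE 0.11), and Ppp1r1a (-0.36, SE 0.08), an inhibitor of protein phosphatase 1. After blocking on run, 1 of the falls remained, Ppp1r1a (-0.54, adjusted p = 0.002). Of 25 other G protein-coupled receptors 3 rose (12%, against 6.27% of all genes) and 0 fell. The somatostatin receptor Sstr2 (1.54, SE 0.32), Gpr83 (0.66) and Gpr155 (0.54) were those that rose, and none passed with the block.

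Regulators of G protein signalling moved in opposite directions. Of 23 RGS proteins, receptor kinases and arrestins 3 rose (13%, against 6.27% of all genes) and 2 fell (8.7%, against 3.59%), with a median of -0.06. Beside Rgs16, Rgs19 rose by 1.2 (SE 0.28, adjusted p = 0.0028), with 8.19 to 9.33 at the high dose above 6.01 to 7.93 with saline. Rgs2 ran from 11.92 to 12.37 (median 12.22) with saline and from 10.93 to 12.01 (median 11.33) at the high dose. It fell by 0.83 (SE 0.09, adjusted p = 2.77e-10), and 7 of 8 high-dose arrays were below all saline arrays. Rgs14 fell by 0.66 (SE 0.16). Under the run block Rgs16 (2.36) and Rgs2 (-0.81) kept their calls.

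Of 41 glutamate receptor and scaffold genes 5 fell (12.2%, against 3.59% of all genes) and 2 rose (4.88%, against 6.27%), with a median of -0.04. The AMPA receptor subunit Gria4 ran from 7.53 to 8.08 (median 7.83) with saline and from 6.03 to 7.42 (median 6.83) at the high dose, a change of -1.03 (SE 0.23, adjusted p = 0.00112) without overlap. The AMPA receptor auxiliary subunits Cacng3 (-0.87, SE 0.14) and Cacng8 (-0.86, SE 0.27) and the kainate receptor auxiliary subunit Neto2 (-0.68, SE 0.15) fell too, of which Cacng3 and Neto2 kept their calls with run as a block. A dimmer probe set of Gria4 changed by 0.16.

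On the inhibitory side, 2 of 15 genes fell (13.3%, against 3.59% of all genes) and 0 rose (median -0.10). Those that fell were gephyrin, Gphn (-0.65, SE 0.15), the scaffold of inhibitory synapses, and the GABA-A receptor subunit Gabrb2 (-0.57, SE 0.13). All 8 high-dose arrays of Gphn (8.92 to 9.67) were below its saline arrays (9.77 to 10.18). Of 33 vesicle release genes 2 rose, Rab3b (0.66) and the complexin Cplx1 (0.26), and 2 fell, the active zone proteins Rims3 (-0.81) and Pclo (-0.78). Each share was 6.06%, against 6.27% up and 3.59% down over all genes. Of 41 potassium channel genes 2 rose, the calcium-activated channel Kcnn1 (1.51, SE 0.39) and the channel partner Kcnip2 (0.18), and Kcnf1 fell by 0.64. That was 4.88% up and 2.44% down, below the shares of all genes. Kcnn1 changed by 0.51 with the block (adjusted p = 0.773). Of 24 sodium, calcium and HCN channel genes the calcium channel subunits Cacna2d2 (-0.56) and Cacna1e (-0.46) fell (8.33%, against 3.59% of all genes) and 0 rose. In the blocked fit none of the calls of the inhibitory, vesicle and channel lists remained.

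Cytoskeletal genes held more rises than falls. Of 56 genes of actin and spine remodelling 11 rose (19.6%, against 6.27% of all genes) and 2 fell (3.57%, against 3.59%). The median change was only 0.03. Behind Rnd1 came Marcksl1, an actin-binding substrate of protein kinase C. It ran from 4.34 to 6.35 (median 5.60) with saline and from 6.57 to 7.62 (median 6.98) at the high dose, a change of 1.45 (SE 0.33, adjusted p = 0.00182) without overlap. Stmn2, a microtubule regulator (0.58, SE 0.14), and Arpc5, a subunit of the actin-nucleating Arp2/3 complex (0.54, SE 0.09), rose as well. After blocking on run, 5 rose and 0 fell.

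Among 26 growth factor genes 2 rose and 1 fell (median -0.15). These shares, 7.69% and 3.85%, were near those of all genes (6.27% and 3.59%). The activin subunit Inhba and its antagonist follistatin, Fst, were those that rose. Fst ran from 4.61 to 6.49 (median 5.47) with saline and from 6.32 to 7.96 (median 7.42) at the high dose, a change of 1.58 (SE 0.29, adjusted p = 0.000102), and its other probe set rose by 2.38. Igfbp4, a binding protein of insulin-like growth factor, fell by 0.99 (SE 0.29). With the block Inhba and Fst kept their calls.

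Of 37 chromatin regulators 4 rose (10.8%, against 6.27% of all genes) and 2 fell (5.41%, against 3.59%), with a median of -0.09. The histone H3 lysine demethylases Kdm6b and Kdm6a moved apart, by 0.79 (SE 0.17) and -0.87 (SE 0.23), and Kmt2c, a histone methyltransferase, fell by 0.69. The other probe sets of Kdm6a, both dimmer, changed by -0.75 and 0.03. Under the run block 3 members rose and 1 fell, and Kmt2c was not among them (-0.50, adjusted p = 0.442). Kdm6b lay between 11.43 and 12.07 at the high dose, above its saline arrays (10.33 to 11.35). Among 19 clock genes 3 rose (15.8%), Nfil3 (0.84), Ciart (0.70) and Tef (0.41), and Per1, which is also activity-induced, fell by 0.72 (SE 0.17). That fall was 5.26% of the list. With the block 0 clock genes passed in either direction.

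Genes of protein folding and of mitochondria rose in larger numbers than they fell. Of 38 unfolded protein and heat shock genes 7 rose (18.4%, against 6.27% of all genes) and 0 fell, with a median of 0.22. The leaders are chaperones and secreted factors of the endoplasmic reticulum: Sdf2l1 (1.29, SE 0.30), Manf (1.11, SE 0.20), Dnajc3 (0.95, SE 0.29) and Hspa5 (0.81, SE 0.15), the chaperone BiP. Manf ran from 8.14 to 9.60 (median 8.98) with saline and from 9.23 to 10.56 (median 10.18) at the high dose (adjusted p = 5.05e-05), with 7 of 8 arrays above all saline arrays. Under the run block 2 of this list rose, and Manf, at 0.82, was not among them (adjusted p = 0.103).

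Of 58 respiratory chain and ATP synthase genes 12 rose (20.7%, against 6.27% of all genes) and 0 fell, by small amounts (median 0.14). The leaders were Atp5g1 (0.48, SE 0.10), Ndufab1 (0.45, SE 0.09), Cyc1 (0.42, SE 0.10) and Atp5l (0.34, SE 0.10). A dimmer probe set of Atp5g1 changed by -0.23, and with the mean of its probe sets Atp5g1 did not pass (0.125, adjusted p = 0.497 in limma). The calls of this list rested in part on 1 animal. Without saline replicate 4, the array with most glial RNA, 4 of the 58 rose, and with run as a block 0 did. Of 40 cytosolic ribosomal protein genes 3 rose (median 0.10), namely Rpl10a (0.35, SE 0.05), Rps2 (0.20) and Rpl19 (0.14), and of 34 proteasome genes 3 rose (median 0.09), namely Psma1 (0.49), Psmd6 (0.30) and Psmb6 (0.22). These shares were 7.5% and 8.82%, against 6.27% of all genes. Without saline replicate 4, 1 gene of each list rose. Rpl10a is also the protein carried by the transgene, and whether its probe set reads the transgene was not tested. Of 21 sterol synthesis genes 2 rose, the mevalonate enzyme Mvd (1.13, SE 0.18) and Fdft1 (0.49), and Srebf2, which switches the pathway on, fell by 0.80 (SE 0.24). That was 9.52% up and 4.76% down, against 6.27% and 3.59% of all genes. The other probe sets of Fdft1 changed by 0.66, 0 and 0. Mvd kept its call under the run block, while Fdft1 (adjusted p = 0.5) and Srebf2 (adjusted p = 0.385) did not.

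**Figure D4:**
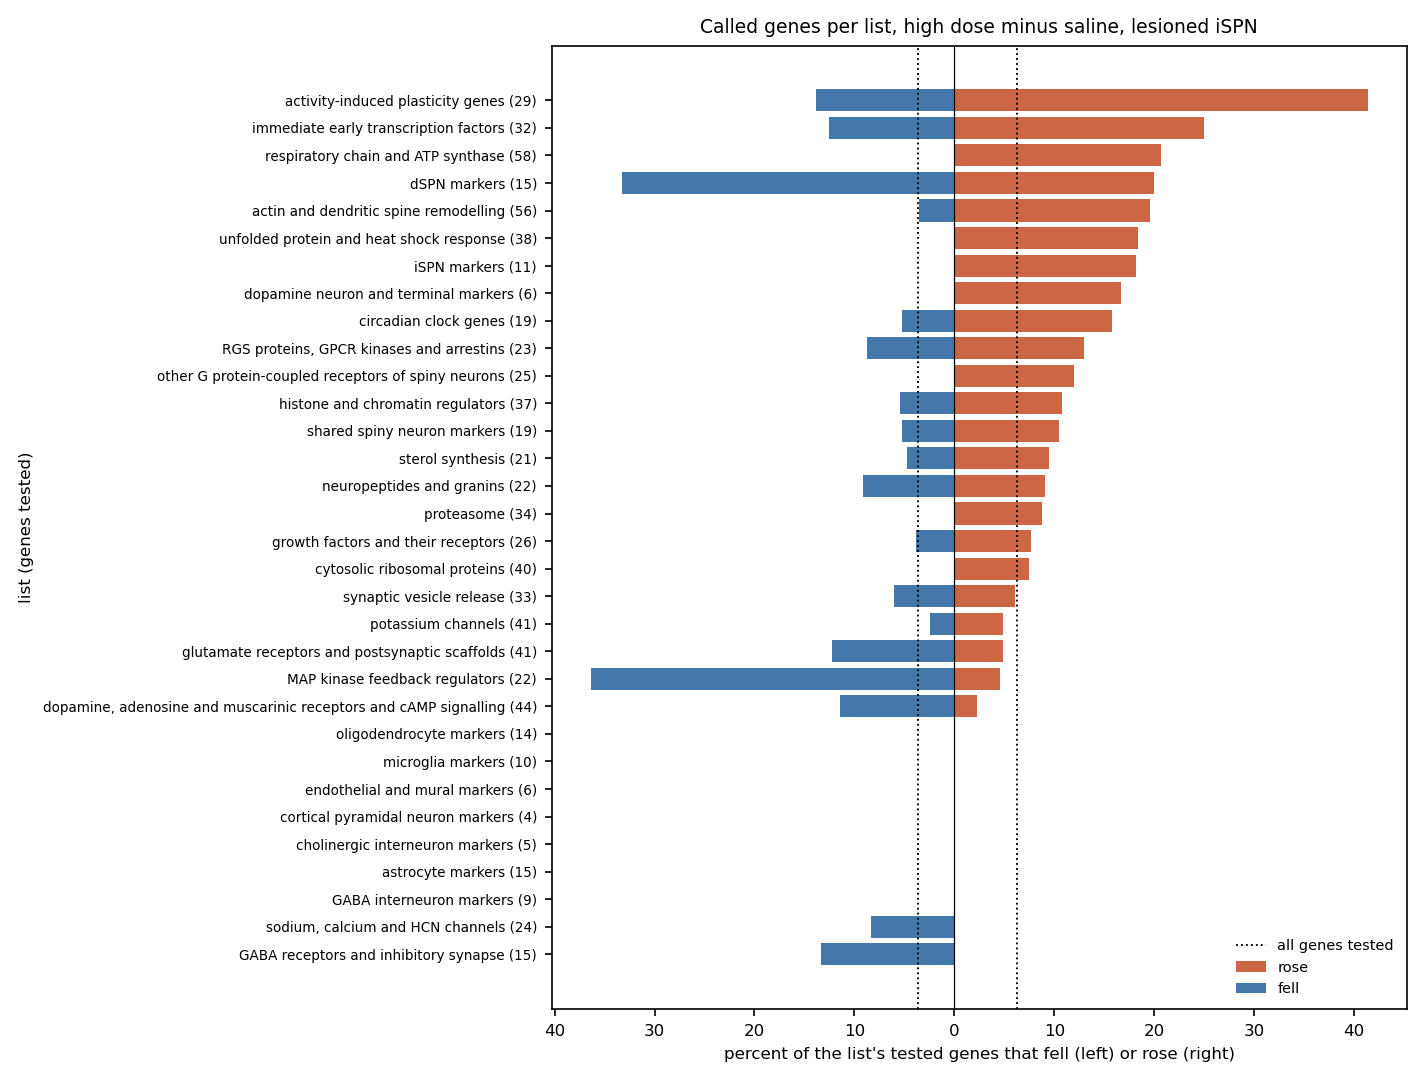
Percent of each list's tested genes (number in brackets) that rose (right, orange) or fell (left, blue) at the high dose in lesioned iSPN. Dotted lines mark the same shares over all 13271 genes, 6.27% and 3.59%, and the longest bars belong to the activity-induced plasticity genes on the right and the MAP kinase feedback regulators on the left.

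The next question was how the response of iSPN to the high dose differed from that of dSPN, measured in other mice. In dSPN the same regimen raised 2667 genes (20.1%) and lowered 3389 (25.5%). The change differed between the lines for 3319 genes (25%) by the interaction term. Of the 832 genes that rose in iSPN, 374 (45%) rose and 137 (16.5%) fell in dSPN, and 404 (48.6%) differed between the lines. Of the 477 that fell in iSPN, 239 (50.1%) fell and 80 (16.8%) rose in dSPN, and 185 (38.8%) differed. Across all 13271 genes, which are not independent, the changes in the lines correlated weakly (Pearson r = 0.261, Spearman rho = 0.242).

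Several of the largest rises in iSPN were larger than in dSPN. Rnd1 averaged 5.53 with saline and 5.34 at the high dose in dSPN, a change of -0.18, so that the response in iSPN was larger by 3.65 (adjusted p = 5.82e-08 in limma). Wfdc18, which also rose in dSPN (0.95, adjusted p = 0.00815), differed by 2.47 (adjusted p = 4.26e-05), Fblim1 by 1.90 (adjusted p = 0.000418) and Rgs16 by 1.69 (adjusted p = 0.000428). Marcksl1 (-1.29 in dSPN) and Rasl11b, a Ras-like GTPase (1.29 in iSPN and -0.96 in dSPN), moved in opposite directions, with differences of 2.73 and 2.25. Fst changed by -0.27 in dSPN, a difference of 1.85. Pdyn (2.10 in dSPN) and Gadd45g (1.93 in dSPN) rose in both lines, and the differences of -0.01 (SE 0.35) and 0.21 (SE 0.24) were not called.

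Activity genes showed the opposite contrast. Of 32 immediate early transcription factors 30 rose in dSPN and 0 fell, with a median of 1.86, and 26 responded less in iSPN. Over all 13271 genes tested, 20.1% rose and 25.5% fell in dSPN, and 1396 had a lower response in iSPN. Nr4a2 rose by 5.98 in dSPN, so that the response of iSPN differed by -3.46. Nr4a1 rose by 3.14 in dSPN and fell in iSPN, a difference of -4.59 (adjusted p = 1.13e-15). Vgf and Scg2 rose by 3.15 and 2.56 in dSPN and fell in iSPN. Of the 22 MAP kinase feedback genes 11 rose and 1 fell in dSPN, and Dusp6 differed by -3.1. Fos, which was not called in iSPN, differed by -4.07 (adjusted p = 1.45e-07).

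The furthest differences towards iSPN after Rnd1 were Rapgef3 (3.37), an exchange factor driven by cyclic AMP, Fam117a (3.27), Notch2 (3.18), a receptor for Delta and Jagged ligands, and Musk (3.00), a receptor kinase. None of these 4 passed in iSPN itself. Their changes in dSPN were -2.73, -2.35, -2.78 and -2.11. Those furthest towards dSPN were Nr4a3 (-5.33), Shisa2 (-4.92), Tinf2 (-4.68), Nr4a1 and the synaptic pentraxin Nptx2 (-4.52). In the blocked fit 2077 genes differed between the lines.

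**Figure D5:**
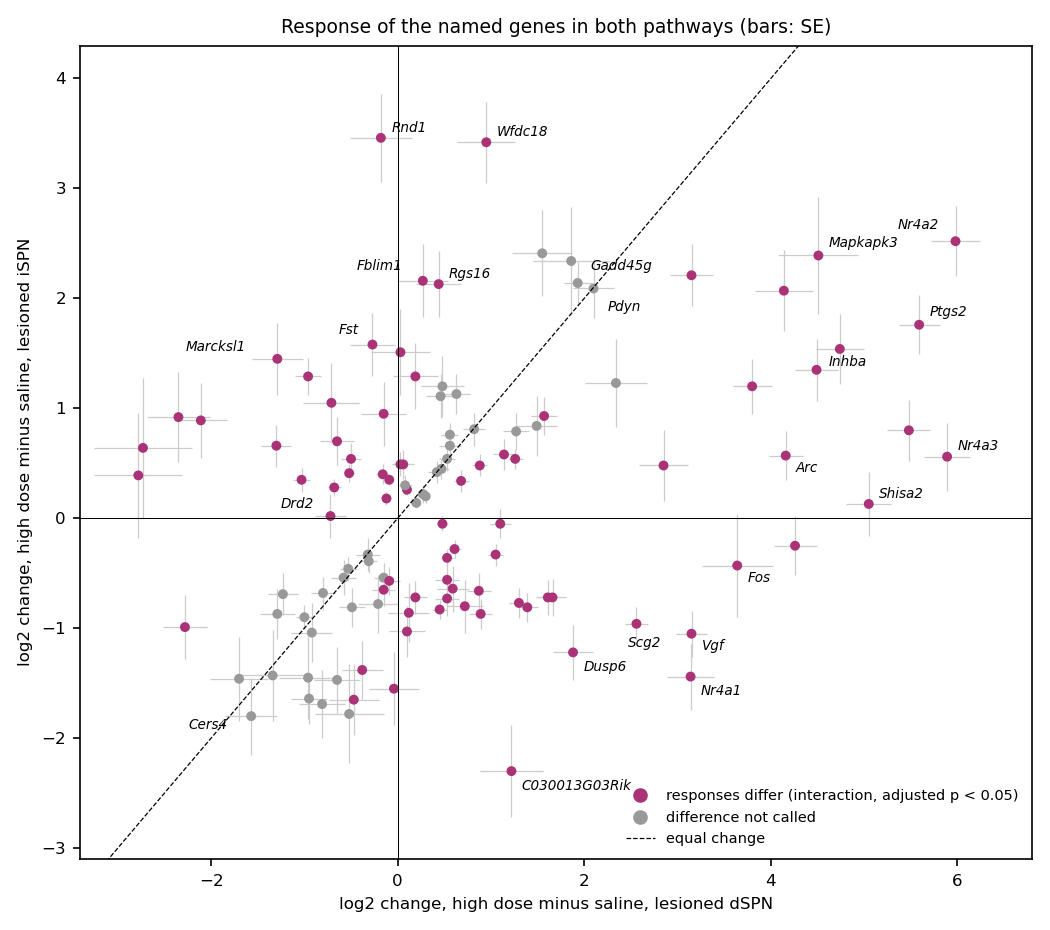
Log2 change of the named genes at the high dose in lesioned dSPN (horizontal axis) and lesioned iSPN (vertical axis), with SE bars, in purple where the responses differed by the interaction term and in grey where the difference was not called. Rnd1, Wfdc18, Rgs16 and Fblim1 lie above the dashed line of equal change, and Nr4a1, Vgf, Scg2 and Dusp6 lie at the lower right, up in dSPN and down in iSPN.

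The high regimen was then set against the low one in lesioned iSPN, to ask which genes depended on the dose. Only 23 genes differed (0.173%), 15 higher and 8 lower at the high dose, beside 1395 at an unadjusted p under 0.05. Wfdc18 averaged 7.10 at the low and 9.06 at the high dose, a difference of 1.95 (SE 0.36, adjusted p = 0.00187 in limma), and Ptgs2 3.31 and 4.74, a difference of 1.43 (adjusted p = 0.00141). The low-dose mean of Ptgs2 lay below the filter cut of 3.55. Rasl11b (0.83), the zinc finger factor Klf10 (0.79) and the vesicle protein Synpr (0.64) were also higher. Slc31a2, a copper transporter homologue (-1.39), the ubiquitin ligase component genes Ubr3 (-0.89) and Fbxo2 (-0.74), Nkain4 (-0.88) and 6820431F20Rik (-0.56) were lower. Ubr3 lay at 11.11 with saline and 11.09 at the low dose and fell to 10.20 at the high dose, where all 8 arrays were below every saline array. High-dose and low-dose arrays share no run, and with run as a fixed block 0 genes differed (1016 at an unadjusted p under 0.05).

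The low dose against saline called 555 genes (4.18%). That comparison shares the saline arrays with the one above, so the values are given side by side only. The 12 genes that rose most at the high dose changed by 1.10 to 2.56 at the low dose, and all 12 passed there. Rnd1 was 4.93 with saline, 6.99 at the low dose and 8.39 at the high dose, where high minus low missed the threshold (adjusted p = 0.114). Hic1 stood at 4.12, 6.69 and 6.47, and Cdkn1a at 8.27, 10.26 and 10.48. Of the 12 largest falls 5 passed at the low dose. Nr4a1 stood at 10.11, 8.56 and 8.67, Scg2 at 10.17, 9.24 and 9.21, and Vgf at 9.96, 8.60 and 8.91.

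The lesion against mock comparison, which also shares the saline arrays, called 823 genes (6.2%), and high dose against mock 2482 (18.7%). Nr4a1 averaged 7.28 in mock-lesioned mice, 10.11 in lesioned saline mice and 8.67 at the high dose, where it was still above mock (1.39, SE 0.28, adjusted p = 0.000135 in limma). Scg2 stood at 8.27, 10.17 and 9.21, and Vgf at 8.31, 9.96 and 8.91, each above mock at the high dose (0.94 and 0.60). C030013G03Rik stood at 4.64, 7.91 and 5.61, and its difference from mock at the high dose, 0.97, did not pass (adjusted p = 0.0653). Rgs2 stood at 11.59, 12.20 and 11.37, a difference from mock of -0.23 (adjusted p = 0.0447).

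Other genes moved further from mock or past it. Inhba stood at 8.75 in mock, 10.30 with saline and 11.65 at the high dose, Fosb at 7.16, 7.97 and 9.17, and Sstr2 at 4.45, 5.83 and 7.36, each higher than mock at the high dose (2.91, 2.01 and 2.92). Rnd1 stood at 4.61, 4.93 and 8.39, a difference from mock of 3.78, with no called change after the lesion (0.32, adjusted p = 0.723). Pdyn stood at 6.99, 6.00 and 8.09, lower after the lesion (-0.99) and above mock at the high dose (1.10), and Tac1 at 9.75, 9.33 and 10.09, with the same order. Fadd, Gask1b and Slc27a1 were not called for the lesion (-0.02, 0.23 and -0.15) and were below mock at the high dose, with differences of -1.79, -1.40 and -1.62. The lesion contrast rests on few shared runs, and with run as a fixed block 106 genes passed for lesion against mock and 295 for high dose against mock.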

How the data were processed

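The data are 77 Affymetrix arrays of ribosome-bound RNA, 1 mouse each. The deposited values are on the log2 scale and were made by the authors with RMA in affy, per the submitters' processing notes, with no version given. Of 45101 probe sets, 34958 carry 1 gene symbol, 932 several and 9211 none. Of these, 34754 matched the GRCm38.p6 gene table by Entrez number, and 0 symbols changed. Each gene was read from its probe set with the highest mean, and 13271 of 18194 genes above the 40th percentile (3.55) were tested. A model with 8 groups and 69 residual degrees of freedom was fitted with limma 3.58.1 in R 4.3.3, with Benjamini-Hochberg adjustment, and was tested on simulated data. The precision is limited by the number of arrays. Named genes are the 12 largest rises and falls, a panel of activity and marker genes, up to 4 called genes per list, and the 5 most extreme genes each way of the dSPN and dose comparisons. Members and lists were chosen with earlier results of these data known. Alternatives covered the run, the arrays fitted, weights, filters, probe sets and scaling, and list counts without saline replicate 4 were added after seeing the data.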

Additional observations from a re-analysis of the deposited data

Results flagged for a closer look

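Of 208 checks of a gene in a group, 20 had an array far from the rest, and chance gives about 1 in 20. On saline replicate 4, C030013G03Rik was the lowest of its group at 6.13 against 7.69 for the nearest array, Cplx1 was the lowest of its group at 11.83 against 12.02 for the nearest array, Cyc1 was the lowest of its group at 10.27 against 10.65 for the nearest array, Kmt2c was the highest of its group at 11.65 against 11.03 for the nearest array, Slc35d3 was the lowest of its group at 4.88 against 5.63 for the nearest array. On saline replicate 7, Nr4a2 was the highest of its group at 6.39 against 5.26 for the nearest array, Rasd2 was the highest of its group at 11.95 against 11.85 for the nearest array, Tac1 was the lowest of its group at 8.44 against 9.26 for the nearest array. On high-dose replicate 1, Dusp1 was the highest of its group at 10.12 against 9.33 for the nearest array, Fblim1 was the lowest of its group at 4.68 against 5.90 for the nearest array, Gadd45g was the lowest of its group at 8.37 against 9.33 for the nearest array, Kcnn1 was the lowest of its group at 5.39 against 6.88 for the nearest array. On high-dose replicate 5, Gucy1a1 was the lowest of its group at 11.50 against 11.71 for the nearest array, Ndufab1 was the lowest of its group at 11.04 against 11.15 for the nearest array. On high-dose replicate 6, Manf was the lowest of its group at 9.23 against 10.03 for the nearest array, Ptpn5 was the lowest of its group at 10.97 against 11.29 for the nearest array, Sdf2l1 was the lowest of its group at 7.49 against 8.24 for the nearest array. Marcksl1 was lowest on saline replicate 2 at 4.34, with the nearest array at 5.54. Ptgs2 was highest on saline replicate 1 at 4.3, with the nearest array at 3.18. Rgs19 was highest on high-dose replicate 2 at 9.33, with the nearest array at 8.69. 

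The response to the high dose differed between iSPN and dSPN, by the interaction term in limma, for 28 of 42 genes read for this, against 25% of all genes tested. The genes read include those with the most extreme differences, so the count is in part set by their choice. The log2 response was higher in iSPN for Drd2 (0.74), Fam117a (3.27), Fblim1 (1.90), Musk (3.00), Notch2 (3.18), Rapgef3 (3.37), Rgs16 (1.69), Rnd1 (3.65) and Wfdc18 (2.47). It was lower in iSPN for Arc (-3.59), Baz1a (-2.07), C030013G03Rik (-3.52), Cdkn1a (-0.94), Egr1 (-1.38), Fos (-4.07), Fosb (-2.59), Junb (-1.15), Mapkapk3 (-2.12), Nptx2 (-4.52), Nr4a1 (-4.59), Nr4a2 (-3.46), Nr4a3 (-5.33), Ntng1 (-1.18), Penk (-0.53), Shisa2 (-4.92), Th (-2.37), Tinf2 (-4.68) and Trmt9b (-1.51).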

How the results depend on the processing

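With run as a fixed block the count for high dose against saline was 249, for the difference between the lines 2077, for high against low dose 0 (1016 at an unadjusted p under 0.05 in limma), for high dose against mock 295 and for lesion against mock 106. On the iSPN arrays alone these counts were 577 for high dose against saline, 3 for high against low dose, 1502 for high dose against mock, 350 for lesion against mock and 153 for low dose against saline. High dose against saline called 600 genes on the 15 arrays alone, 61 within run 6 and 982 to 1374 with 1 array left out, with the fewest without saline replicate 4. High against low dose called 158 with run as a random block and 41 with the mean of probe sets, and lesion against mock 438 with array weights. Drd2 turned to -0.054 with the fixed block, -0.048 with array weights and -0.033 when quantile normalized again, Th to -0.043 with the fixed block and Fos to 0.016 within run 6. The cause was not tested. The remaining alternatives (random run block, array weights, filters, probe sets, scaling and variance trend) gave 1160 to 1606 for high dose against saline, with 764 up and 534 down after a second quantile normalization and 876 and 454 after centring. No paired analysis was possible because replicate numbers only follow accession order. All 8 high-dose arrays lie in 1 run, which limits what the saline arrays of other runs can show.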
